A study of Homo sapiens with 12 samples.

Results

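The CDK inhibitors other than p21 were 7 genes, CDKN1B, CDKN1C, CDKN2A, CDKN2B, CDKN2C, CDKN2D and CDKN3, taken as every gene probe of the array whose gene name is one of these symbols. They were covered by 10 of the array's 41000 gene probes, and their brightest probes stood for 7 of the 24168 gene names that could be tested. The samples were HuH-7 cells, an established human hepatocellular carcinoma line that carries a mutant p53. The cells had been kept for 24 h in the solvent DMSO or in SLMP53-2, a small molecule made to reactivate mutant p53, at 28 µM or at 42 µM, which are 2 and 3 times the concentration that inhibits growth by 50%. Each of the 3 groups had 4 biological replicates, each on 1 one-colour Agilent array, so all 12 arrays share 1 cell line and 1 time point. The treatment field of the labels gives the higher dose as 48 µM where the titles and the design text give 42 µM, and it is called 42 µM here.

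CDK inhibitors hold back the cyclin-dependent kinases that drive cells through the division cycle. The INK4 proteins, encoded by CDKN2A (p16), CDKN2B (p15), CDKN2C (p18) and CDKN2D (p19), bind CDK4 and CDK6 and keep them from cyclin D, which leaves the retinoblastoma protein in its growth-restraining form. The CIP/KIP proteins, p21, p27 (CDKN1B) and p57 (CDKN1C), bind complexes of cyclin and kinase, above all those of CDK2, whereas CDKN3 (KAP) is a phosphatase that removes the activating phosphate from CDK2 and CDK1. In liver tumours CDKN2A is often silenced or deleted, and CDKN1C lies in an imprinted gene cluster and is read from the maternal copy.

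All 7 genes were detected in every sample. Each of the 10 probes was well above background on 12 of 12 arrays, and all 10 passed the filter on low signals. The dimmest of them was one CDKN2B probe, with a mean pixel signal of 133.4 to 321.5 above a local background of 47.0 to 63.0. Over an array, 65.0% to 85.0% of the gene spots were well above background and no spot was saturated. Of 8 hepatocyte markers, 7 were detected on 12 arrays and TTR on 11, and the leukocyte marker PTPRC was detected on 0 arrays. One array stood apart from its group. Over the 885 probes that differed between 42 µM and DMSO, the array of 28 µM replicate 4 had a median shift of 0.14 log2 units from the DMSO mean, against 0.71 to 0.90 on the other 28 µM arrays and 0.75 to 1.15 on the 42 µM arrays. Shifts were counted in the direction of that difference, so the choice of probes itself makes the shift large on the 42 µM arrays.

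At 42 µM, CDKN2C, CDKN3 and CDKN1C fell to between 44.8% and 48.6% of their DMSO level. None of the 7 genes was called higher. A gene was called changed when limma's adjusted p was below 0.05 and its log2 fold change was at least 0.6 either way. The 3 lower genes of 7 stand beside 1.42% of all tested genes called lower in the same comparison, and the 0 higher genes stand beside 1.58% called higher. The median log2 fold change was -0.47 over the 7 genes and -0.02 over all genes tested, and 6 of the 7 values were negative. At 28 µM no gene of the array was called, so the count of 0 members stands beside 0% of all genes. At 28 µM and an unadjusted p below 0.05 with the same fold limit, the same 3 genes were lower, beside 1.23% of all genes (297 genes), and no member was higher, beside 1.47% (355 genes). The median over the 7 genes at 28 µM was -0.34, and it was -0.02 over all genes. RNA was taken from whole cultures, so fewer cells expressing a gene and less RNA per cell cannot be told apart.

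**Figure D1:**
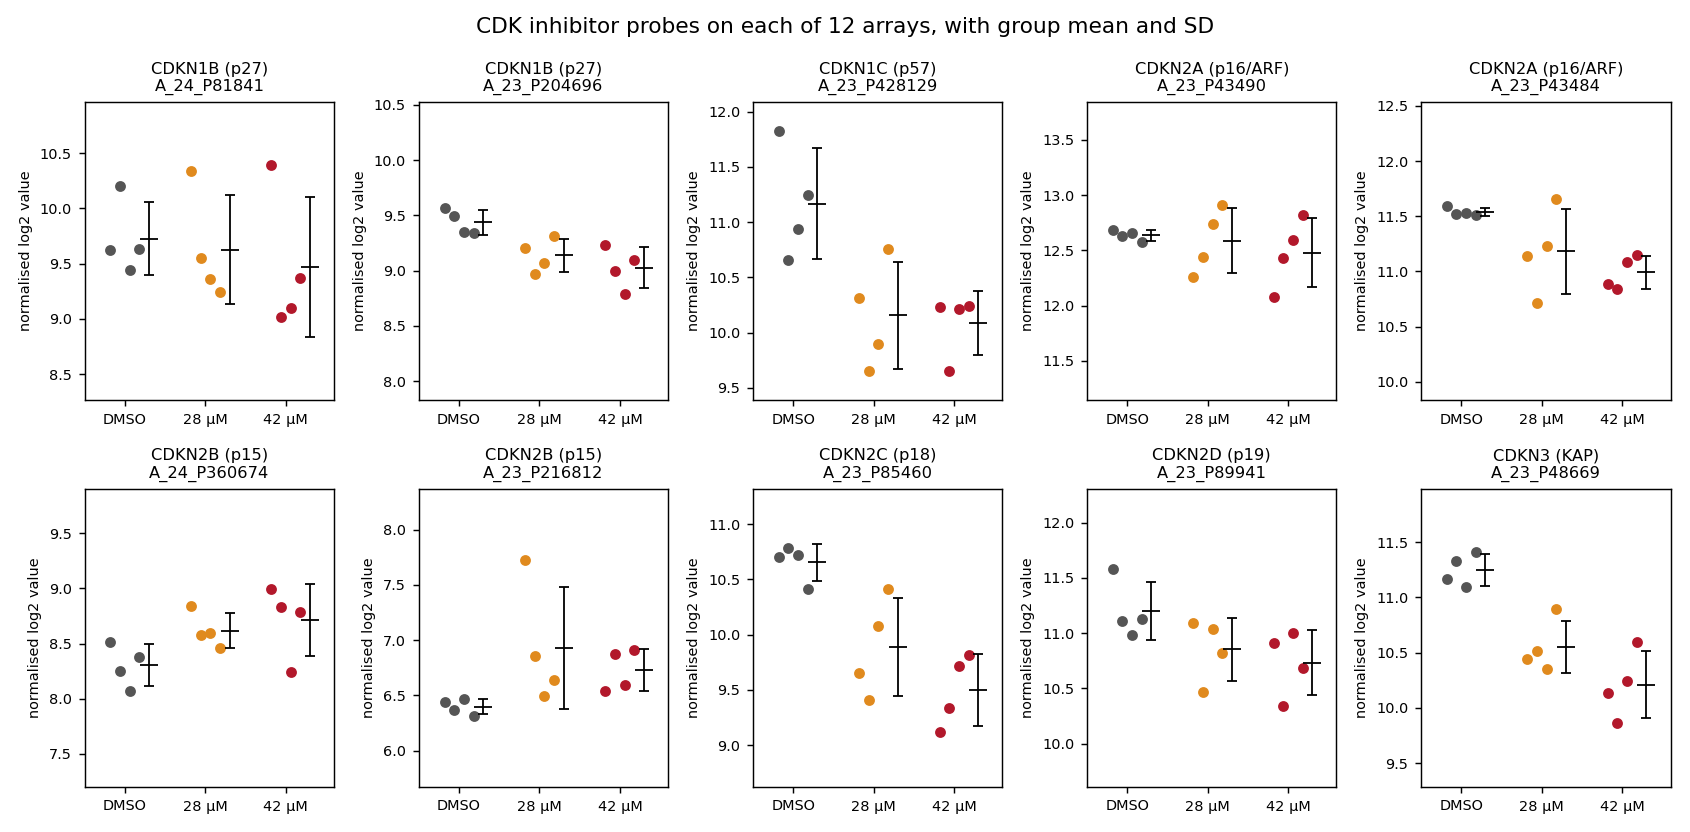
Normalised log2 value (y axis) of each of the 10 CDK inhibitor probes on each array, by treatment group (x axis), with replicates 1 to 4 from left to right as points and the group mean ± SD (n = 4) as bars; every panel spans the same range of log2 units around its own centre. CDKN2C and CDKN3 at 42 µM lie wholly below DMSO, whereas the 2 probes of CDKN1B place the first 28 µM and 42 µM arrays differently.

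CDKN3 was measured by a single probe, whose 60 bases lie in the coding sequence and cross an exon boundary. On hg19 it matches the plus strand between chr14:54878384-54882635. It is shown because it carries the codons of the histidine and the catalytic cysteine of the phosphatase signature, given here in capitals, so that its signal reports transcripts that hold these codons.
CDKN3 probe: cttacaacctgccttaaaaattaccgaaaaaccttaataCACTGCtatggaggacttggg
On the log2 scale CDKN3 was at 11.16, 11.33, 11.10 and 11.41 on the 4 DMSO arrays. It was at 10.44, 10.51, 10.35 and 10.89 on the 28 µM arrays. It was at 10.13, 9.86, 10.24 and 10.60 on the 42 µM arrays. No treated array at either dose reached the lowest DMSO array. CDKN3 was the only one of the 7 genes, by its brightest probe, to separate fully from DMSO at 28 µM, beside 2.93% of all genes that lay wholly below DMSO there. The log2 fold change at 42 µM was -1.04 ± 0.16 (SE, n = 4 per group; limma adjusted p = 0.0113), which is 48.6% of the DMSO level. At 28 µM it was -0.70 ± 0.16 (limma adjusted p = 0.182), and it was not called.

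CDKN2C encodes p18, an inhibitor of CDK4 and CDK6. Its log2 values were 10.70, 10.79, 10.72 and 10.41 in DMSO, 9.65, 9.41, 10.08 and 10.41 at 28 µM, and 9.12, 9.34, 9.72 and 9.81 at 42 µM. The groups of DMSO and 42 µM did not overlap, whereas at 28 µM replicate 4 reached the lowest DMSO array and the other 3 lay below all of them. In the fit over 12 arrays the change was the largest of the 7 genes at 42 µM, with a log2 fold change of -1.16 ± 0.21 (SE, n = 4 per group; limma adjusted p = 0.0159), or 44.8% of DMSO. At 28 µM it was -0.77 ± 0.21 (limma adjusted p = 0.215).

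CDKN1C encodes p57, the CIP/KIP member that is imprinted. Its log2 values were 11.83, 10.66, 10.93 and 11.24 in DMSO, 10.32, 9.65, 9.89 and 10.76 at 28 µM, and 10.23, 9.65, 10.21 and 10.24 at 42 µM. DMSO was the most spread of the 3 groups, with an SD of 0.50 against 0.05 to 0.33 for the other brightest member probes in DMSO. All 42 µM arrays lay below all DMSO arrays, and at 28 µM replicate 4 lay inside the DMSO range. The mean fell by 1.08 ± 0.27 on the log2 scale at 42 µM (SE, n = 4 per group; limma adjusted p = 0.0464), which is close to the limit of the call. At 28 µM the difference was almost as large, at -1.01 ± 0.27, with a limma adjusted p of 0.206.

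By the brightest probe, 3 of the 7 genes lay wholly below DMSO at 42 µM, where 7.01% of all genes did, and these were again CDKN1C, CDKN2C and CDKN3. No member lay wholly above DMSO by its brightest probe, where 5.94% of all genes did at 42 µM.

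The other INK4 genes were not called at either dose. CDKN2B, which encodes p15 and is known as a gene that TGF-beta switches on, was the member whose values lay higher after treatment. On its brightest probe, near the 3′ end of the transcript, the log2 values were 8.52, 8.25, 8.07 and 8.38 in DMSO, 8.84, 8.58, 8.59 and 8.46 at 28 µM, and 8.99, 8.83, 8.24 and 8.78 at 42 µM. On 3 of 4 arrays at each dose the signal was above every DMSO array. The log2 difference was 0.31 ± 0.16 at 28 µM (limma adjusted p = 0.504) and 0.41 ± 0.16 at 42 µM (limma adjusted p = 0.228). A second CDKN2B probe begins at base 274 of its transcript, near the 5′ end. It read 6.44, 6.37, 6.46 and 6.32 in DMSO, 7.73, 6.86, 6.49 and 6.64 at 28 µM, and 6.54, 6.87, 6.60 and 6.91 at 42 µM. Every treated array exceeded every DMSO array on this probe. By their brightest probes, 5.94% of all genes lay wholly above DMSO at 42 µM, and the share at 28 µM is not given here. Its differences were 0.53 ± 0.22 at 28 µM (limma adjusted p = 0.382), where replicate 1 stood above all other arrays, and 0.33 ± 0.22 at 42 µM (limma adjusted p = 0.535).

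CDKN2A encodes p16 and, through another first exon and reading frame, the p53-pathway protein ARF. Both of its probes lie near the 3′ end that these transcripts share, at chr9:21968039-21968098 and chr9:21967780-21967839 on hg19, so p16 and ARF RNA cannot be told apart. The brighter probe read 12.68, 12.63, 12.66 and 12.57 in DMSO, 12.26, 12.44, 12.74 and 12.91 at 28 µM, and 12.08, 12.43, 12.59 and 12.82 at 42 µM. DMSO was narrow, with an SD of 0.05, and the treated arrays lay on both sides of it. The log2 difference on this probe was -0.05 ± 0.17 at 28 µM (limma adjusted p = 0.936) and -0.15 ± 0.17 at 42 µM (limma adjusted p = 0.765). The second probe, printed on 10 spots of each array, read 11.59, 11.52, 11.53 and 11.51 in DMSO, 11.14, 10.72, 11.23 and 11.65 at 28 µM, and 10.89, 10.84, 11.09 and 11.15 at 42 µM. All 42 µM arrays and 3 of 4 arrays at 28 µM lay below DMSO on it. At 42 µM, 7.01% of all genes lay wholly below DMSO by their brightest probes. The differences were -0.36 ± 0.16 (limma adjusted p = 0.448) and -0.55 ± 0.16 (limma adjusted p = 0.0960), so neither probe met the call but they placed the size of the change differently. The brighter probe also moved with the scaling: with the 75th percentile in place of quantiles its values at 28 µM and 42 µM were -0.28 and -0.38 on the processed signal and -0.20 and -0.36 on the Edwards values, with no call. Under that scaling the second probe was at -0.45 and -0.68 on either signal. At 42 µM it passed the fold limit but was not called (limma adjusted p = 0.0854 on the processed signal and 0.0688 on the Edwards values).

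CDKN2D encodes p19, which shares its targets with p18. It read 11.58, 11.11, 10.98 and 11.13 in DMSO, 11.10, 10.47, 11.04 and 10.82 at 28 µM, and 10.91, 10.34, 11.00 and 10.69 at 42 µM. The groups overlapped at both doses, since DMSO replicate 3 lay among the treated arrays. The log2 difference was -0.34 ± 0.18 (limma adjusted p = 0.518) at 28 µM and -0.47 ± 0.18 (limma adjusted p = 0.226) at 42 µM. The 95% interval at 42 µM ran from -0.86 to -0.07.

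CDKN1B encodes p27, which is controlled in large part by breakdown of the protein rather than by its transcript. It had 2 probes that behaved differently. One, shown here because its values ran in 1 direction, lies in the coding sequence on hg19 at chr12:12871119-12871178, plus strand.
CDKN1B coding probe: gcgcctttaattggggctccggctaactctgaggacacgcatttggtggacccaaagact
This probe read 9.56, 9.49, 9.35 and 9.34 in DMSO, 9.20, 8.97, 9.07 and 9.31 at 28 µM, and 9.23, 8.99, 8.79 and 9.09 at 42 µM. Every treated array was below every DMSO array, by small margins. By their brightest probes, 2.93% of all genes lay wholly below DMSO at 28 µM and 7.01% at 42 µM. The log2 difference was -0.30 ± 0.12 (limma adjusted p = 0.396) at 28 µM and -0.41 ± 0.12 (limma adjusted p = 0.0991) at 42 µM, so the probe was not called at either dose.

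The brighter CDKN1B probe lies further 3′, at chr12:12874940-12874999 on hg19, and was printed on 10 spots. It read 9.62, 10.20, 9.44 and 9.63 in DMSO, 10.34, 9.55, 9.36 and 9.24 at 28 µM, and 10.39, 9.02, 9.09 and 9.37 at 42 µM. Replicate 1 of each treated group, both on slide 2, stood above every DMSO array, whereas 3 of 4 arrays at 42 µM stood below every DMSO array. The spots of this probe also scattered within an array, with an SD from 0.10 to 0.55 log2 units. The log2 difference was -0.10 ± 0.30 (limma adjusted p = 0.924) at 28 µM and -0.26 ± 0.30 (limma adjusted p = 0.791) at 42 µM, with a 95% interval at 42 µM from -0.91 to 0.40. With Agilent's processed signal and with the authors' own values the coding probe was the brighter of the pair, so that the gene's value became -0.43 and -0.49 (processed signal, quantile scaling), -0.46 and -0.54 (75th percentile scaling) or -0.28 and -0.38 (authors' values) at 28 µM and 42 µM. The 3′ probe itself was at -0.15 and -0.28, -0.19 and -0.31, and 0.08 and -0.18 in the same order. None of these was called. The array slide was not tested as a source of the high values on slide 2, where DMSO replicate 4 read 9.63.

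**Figure D2:**
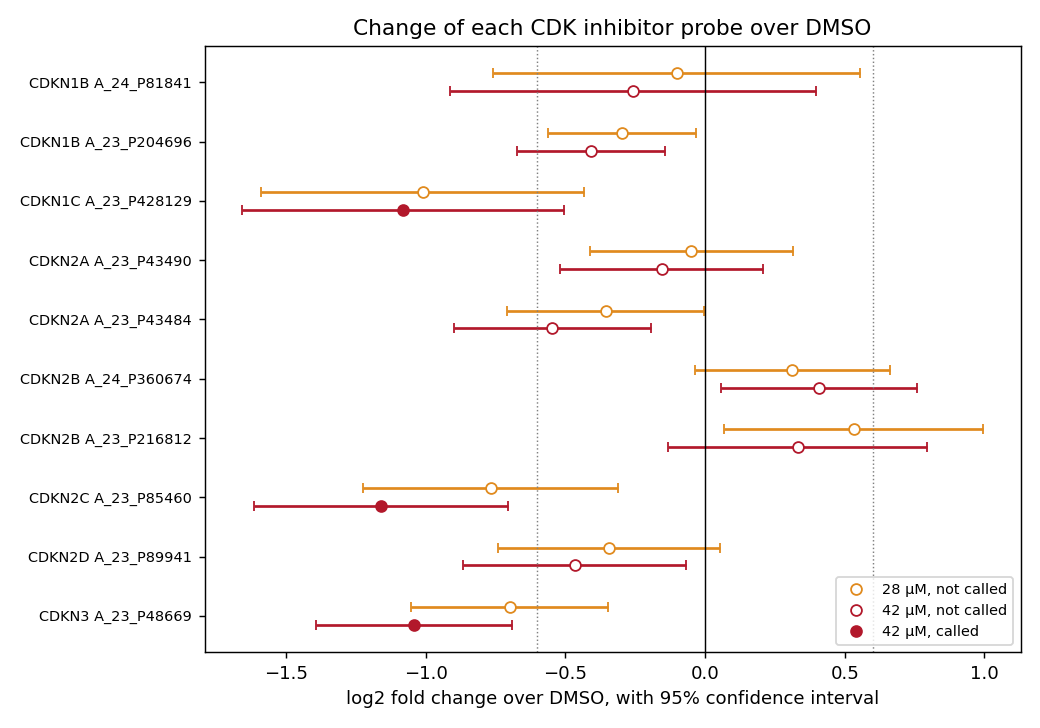
Log2 fold change over DMSO (x axis) of each CDK inhibitor probe (y axis) at 28 µM (orange) and 42 µM (red), with the 95% confidence interval of the fit over 12 arrays; filled points were called and dotted lines mark the limit of 0.6. The called probes are CDKN1C, CDKN2C and CDKN3 at 42 µM, and CDKN2B is the gene whose probes lie to the right of 0.

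The paralog p21 (CDKN1A), set apart from these genes as the inhibitor that p53 itself switches on, was not called either. Its brightest probe differed from DMSO by 0.26 ± 0.11 at 28 µM (limma adjusted p = 0.409) and by 0.31 ± 0.11 at 42 µM (limma adjusted p = 0.160). On this probe all 4 arrays at each dose lay above every DMSO array, as 5.94% of all genes did at 42 µM. The share of all genes at 28 µM is not given here. A dimmer p21 probe differed by 0.21 at 28 µM and 0.08 at 42 µM, and its groups overlapped.

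Between the doses no member differed by the call, nor did any other gene (0% of genes lower and 0% higher). At an unadjusted p below 0.05 with the same fold limit, 46 genes (0.19%) were lower and 27 (0.112%) higher at 42 µM, with 0 members among them. CDKN2C was 0.39 log2 units lower at 42 µM than at 28 µM with a 95% interval from -0.85 to 0.06, and CDKN3 was 0.34 lower with an interval from -0.69 to 0.01. For CDKN1C the value was -0.07 with an interval from -0.65 to 0.51, which leaves room for a difference of either sign.

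The calls at the lower dose depended on the 28 µM array that stood apart. Without 28 µM replicate 4, CDKN3 (-0.81, limma adjusted p = 0.0201), CDKN2C (-0.94, limma adjusted p = 0.0268) and CDKN1C (-1.21, limma adjusted p = 0.0294) were all called lower at 28 µM. In that fit 237 of the 24168 genes tested were called lower and 350 higher. These are the same 3 genes that were called at 42 µM. That array was singled out by its small shift over probes that differed at 42 µM, and the probes of these 3 genes are among them. Both comparisons also use the same DMSO arrays, so the repeat of the 3 genes is not independent support. At 42 µM the calls rested on few arrays in turn. All 3 were lost without DMSO replicate 2 (adjusted p from limma of 0.0505 to 0.0622) and without 42 µM replicate 2 (0.0522 to 0.166), where no gene of the array was called. CDKN2C was also lost without DMSO replicate 1 (-1.14, limma adjusted p = 0.0504), and CDKN1C was lost in 10 of the 12 fits that left out 1 array, with values between -1.25 and -0.86. The log2 fold changes themselves moved little, between -1.26 and -1.03 for CDKN2C and between -1.17 and -0.93 for CDKN3.

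**Figure D3:**
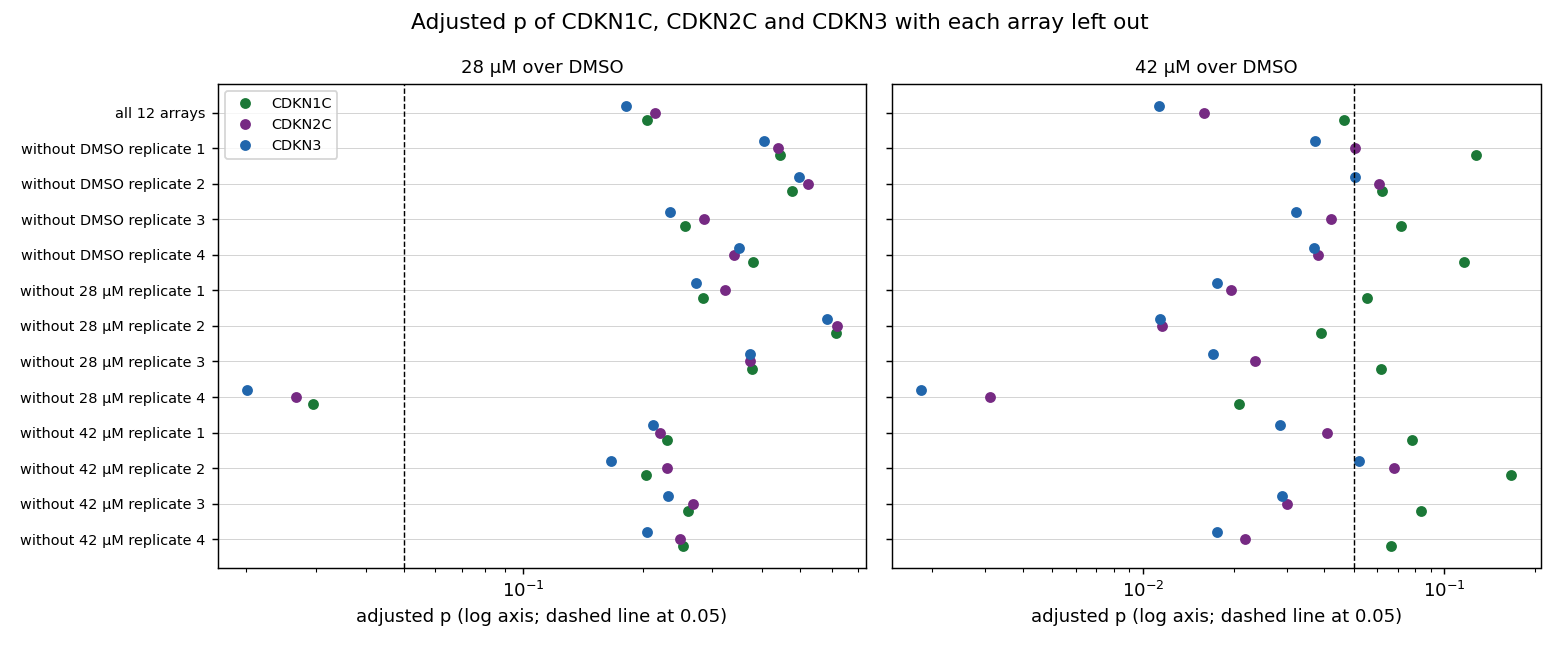
Adjusted p (x axis, log scale, limma with Benjamini-Hochberg adjustment) of CDKN1C, CDKN2C and CDKN3 over DMSO at 28 µM (left) and 42 µM (right), in the fit over 12 arrays and in 12 fits that each left out the named array (y axis); the dashed line marks 0.05. At 28 µM the points pass the line where 28 µM replicate 4 was left out, and at 42 µM CDKN1C lies to the right of the line in 10 of the 12 fits that left out an array.

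The arrays were printed on 5 slides that each held arrays of 2 or 3 groups. Within the slides that held both DMSO and 42 µM, CDKN3 differed by -1.28 (slide 2), -1.24 (slide 4) and -1.09 (slide 5). CDKN2C differed by -1.29, -1.39 and -1.07, and CDKN1C by -1.01, -1.28 and -0.44, so each of these comparisons pointed down. With the slide as a fixed block the values were -1.13 for CDKN3 (limma adjusted p = 0.0560), -1.10 for CDKN2C (0.0598) and -0.97 for CDKN1C (0.161), and none of the 3 was called. In that fit 1 gene of the whole array was called lower and 0 higher. At 28 µM, CDKN3 differed within slides by -0.81 (slide 1), -0.97 (slide 2) and -0.20 (slide 4), the last being 28 µM replicate 4. CDKN2C differed there by -0.62, -0.76 and -0.31, and CDKN1C by -1.93, -0.93 and -0.18.

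The kinases and cyclins that these inhibitors act on were read from lists chosen from general knowledge of the pathway. Earlier results of these data were known when the lists were chosen. Of the CIP/KIP targets, 5 of the 7 tested genes were called lower at 42 µM and none higher, with a median log2 fold change of -0.99. Over all genes at 42 µM, 1.42% were called lower and 1.58% higher, and the list counts that follow stand beside the same shares. The largest were CCNA2 (-1.29 ± 0.30, SE; limma adjusted p = 0.0377), which encodes the cyclin of S phase, CDK1 (-1.23 ± 0.22; 0.0154), the kinase of mitotic entry, and CCNB1 (-1.22 ± 0.20; 0.0125), its mitotic cyclin. CDK1 stood at 11.31, 11.78, 11.38 and 11.59 in DMSO, at 11.01, 10.62, 10.57 and 11.50 at 28 µM, and at 10.31, 9.83, 10.29 and 10.69 at 42 µM. As with CDKN2C, CDK1 in 28 µM replicate 4 lay within the DMSO range. Of the 5 INK4 targets, CDK4, CDK6 and the D cyclins, none was called and the median was -0.13. CDK4, named after its values were seen, differed by 0.58 ± 0.14 with a limma adjusted p of 0.0411, just under the fold limit. The 3 pocket proteins RB1, RBL1 and RBL2 gave 0 calls and a median of -0.20.

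Among the 8 genes of p27 turnover, 1 was called lower at 42 µM. This was CKS2 (-0.74 ± 0.17; limma adjusted p = 0.0391), a small CDK-binding protein and the paralog of CKS1B, the cofactor of p27 breakdown. Its values were 14.20, 13.89, 13.73 and 13.69 in DMSO and 13.30, 12.69, 13.27 and 13.29 at 42 µM, without overlap, as for the 7.01% of all genes wholly below DMSO. Among the 8 genes of the activating and inhibitory phosphorylation of CDKs, 1 was called lower. It was PKMYT1 (-0.99 ± 0.21, limma adjusted p = 0.0268), a kinase that holds CDK1 inactive. Among 20 transcriptional regulators of CDK inhibitor genes, 2 were called higher and none lower. MYC, known to hold back CDKN2B and p21 transcription together with ZBTB17, stood at 11.43, 11.55, 11.66 and 11.37 in DMSO and at 13.18, 13.01, 12.37 and 12.25 at 42 µM (1.20 ± 0.24; limma adjusted p = 0.0216). FOXO3, a known activator of the p27 gene, stood at 7.94, 7.96, 8.04 and 8.21 in DMSO and at 8.67, 9.38, 8.77 and 8.58 at 42 µM (0.81 ± 0.18; limma adjusted p = 0.0303). Every 42 µM array was above every DMSO array for both regulators, as for 5.94% of all genes.

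Of the transcripts next to these loci, 4 were tested and 0 were called, with a median of 0.09. PHLDA2, which shares the imprinted cluster with CDKN1C and is named after its values were seen, differed by -0.89 ± 0.23 (limma adjusted p = 0.0544). The other tested transcripts of this list differed by 0.44 (KCNQ1OT1), 0.33 (SLC22A18) and -0.14 (MTAP), so they did not share this fall. The ARF axis, MDM2, NPM1 and E2F1, gave 0 calls of 3. At 28 µM none of the genes of these 8 lists was called. Like the members, all 9 called genes of the lists lost their calls at 42 µM with the slide as a fixed block and without DMSO replicate 2 or 42 µM replicate 2. Of these 9, only CDK1, CCNB1 and CCNB2 kept their calls in each of the other 10 fits that left out 1 array. Without DMSO replicate 1 or 4 those were the 3 calls that remained, and without DMSO replicate 3 MYC remained too. MYC was lost in 5 of the 12 fits, also without 42 µM replicate 1, and FOXO3 in 6, also without 42 µM replicate 3. PKMYT1 was lost in 6 fits, also without 42 µM replicate 1. CCNA2 and CCNE1 were lost in 8 and CKS2 in 9, all also without 28 µM replicate 3 or 42 µM replicate 1 or 3, and CKS2 without 42 µM replicate 4.

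**Figure D4:**
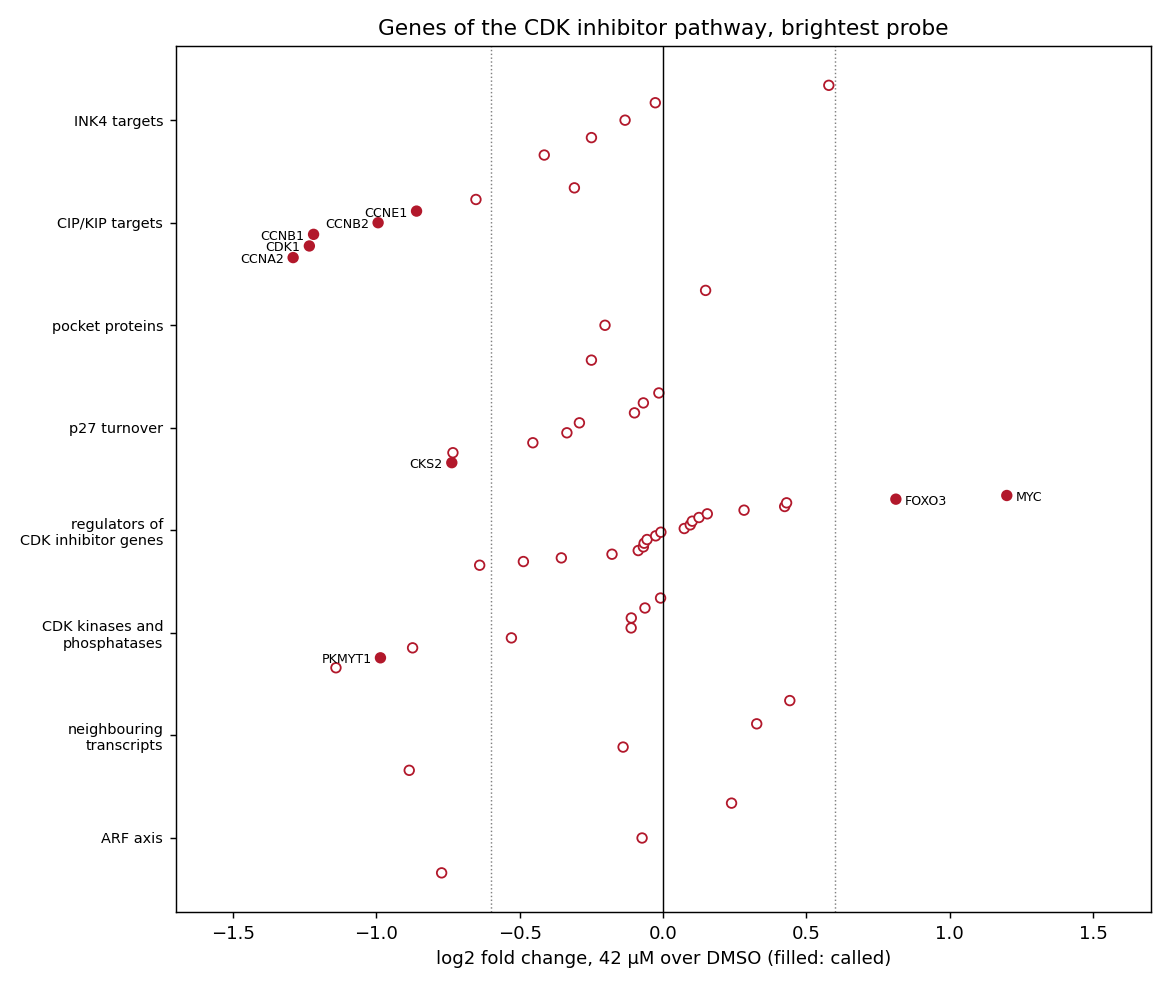
Log2 fold change at 42 µM over DMSO (x axis) of the genes of 8 lists around the CDK inhibitors (y axis), each by its brightest probe; filled, named points were called and dotted lines mark the limit of 0.6. The called genes are 5 CIP/KIP targets, CKS2 and PKMYT1 on the lower side, and FOXO3 and MYC on the higher side.

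The genes whose signal most resembled that of a member were found by Pearson correlation over the 12 arrays among 24119 genes, as a description; the arrays share groups and slides, so any gene that moved with treatment can score high. The nearest to CDKN2C were E2F8 (r = 0.975), an E2F-family repressor of the cell cycle, SLC2A4RG (0.972) and PDK3 (0.972). The nearest to CDKN3 were MYCBP (0.971), the kinetochore gene SPC25 (0.969) and a probe without a gene name (0.966). The nearest to CDKN1C were the mitochondrial fatty acid enzyme gene ECHS1 (0.958), ANKRD33B (0.954) and AGFG2 (0.951). For CDKN2D they were HAUS6 (0.971), SULF2 (0.956) and EMC8 (0.952). The brighter CDKN2A probe ran closest to TMSB10 (0.944), HYAL2 (0.937) and B4GALNT1 (0.937). The brightest CDKN2B probe ran closest to lnc-PPP1R14D-1 (0.963), TMEM251 (0.913) and RAB22A (0.911). The brighter CDKN1B probe, with its high values on slide 2, ran closest to IER3IP1 (0.962), LAP3 (0.948) and STK17A (0.942).

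Since CDKN3 and CDKN2C fell together with CDK1 and the mitotic cyclins, the 250 bases before their starts are shown with the letters of cell-cycle promoter elements in capitals. RefSeq windows on GRCh38.p14 were at hand for 6 of the 7 members, and the letters searched on both strands were TTTGAA and TTCGAA for the CHR element, CCAAT, and for E2F sites TTTCCCGC, TTTCGCGC, TTTGCCGC and TTTGGCGC. The CDKN3 window, chr14:54396757-54397006 on the plus strand, and the CDKN2C window that held a match, chr1:50969995-50970244 on the plus strand, read as follows.
CDKN3: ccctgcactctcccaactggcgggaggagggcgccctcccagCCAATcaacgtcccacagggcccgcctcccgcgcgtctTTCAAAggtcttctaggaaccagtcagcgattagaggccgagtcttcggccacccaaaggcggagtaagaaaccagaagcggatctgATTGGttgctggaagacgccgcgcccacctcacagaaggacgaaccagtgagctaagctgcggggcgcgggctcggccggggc
CDKN2C: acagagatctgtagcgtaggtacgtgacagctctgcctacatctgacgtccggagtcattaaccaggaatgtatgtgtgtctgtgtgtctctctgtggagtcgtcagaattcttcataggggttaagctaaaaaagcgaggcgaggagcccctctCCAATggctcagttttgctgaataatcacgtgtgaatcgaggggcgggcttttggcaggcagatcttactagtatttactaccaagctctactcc
The CDKN3 window held 2 CCAAT boxes and 1 CHR, whose letters run on the minus strand. CDKN2C has 3 starts in the table, of which the one shown held 1 CCAAT box and the others held no match. CDKN1B held 2 CCAAT boxes and CDKN2D held 1, whereas the windows of CDKN2A and CDKN2B held no match. Of the 34943 promoter windows of this length, 32.0% held CCAAT, 14.4% a CHR and 2.77% one of the E2F spellings. CCAAT was present in windows of CDKN3 and CDKN2C, which fell, and of members that were not called. CDKN1C, which also fell, was the member without a window and was not searched.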

How the data were processed

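The authors extracted RNA from the cells and hybridised each sample to 1 one-colour Agilent 4x44K array. The deposited scanner files hold, per the file headers, the mean pixel intensity of a spot and, for its surround, the median background intensity, read with Agilent Feature Extraction 10.7.3.1 and not normalised between arrays. A deposited table holds the authors' own log2 values after Edwards background correction and quantile normalisation, and it was used as an alternative. Probe positions are on hg19, per the file headers.

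Here the mean intensities were corrected with the Edwards method and quantile normalised in limma 3.58.1 (R 4.3.3) as the study's methods name, spots with outlier flags were left out, and repeat spots were averaged. Probes that failed Agilent's flag for signal over background on 3 or more of 4 arrays in each group were dropped, which kept 33467 of 41000 probes. Groups were compared with lmFit and eBayes over all 12 arrays, two-sided, with Benjamini-Hochberg adjustment over all probes. A gene was represented by its brightest tested probe. The log2 limit of 0.6 is the one given in the study's results and is lower than the fold limit in its methods. A limit of 1 was an alternative. The members, the pathway lists and the rule for named genes (all members, the called genes of each list or the 3 largest of them, and the 3 nearest genes by correlation) were chosen with earlier results of these data known. In simulated data of 33401 probes the 42 µM comparison recovered 76.0% of 200 changes of 1 log2 unit with 4 false calls, and the 28 µM comparison recovered 72.5% with 7. The simulated noise was independent for each probe and array, without slide effects or an array that stood apart. These shares therefore check the fit and need not hold for the measured arrays. The number of arrays limits the precision. No pair of arrays held identical values. The alternatives changed the background correction, normalisation, filter, block, model, fold limit and choice of probe, and left out each array. Motifs were found by letter match in Python.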

Additional observations from a re-analysis of the deposited data

Results flagged for a closer look

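CDKN1C on the 42 µM arrays was marked because 1 sample lay far from the others: replicate 2 was at 9.65 on the log2 scale and the other 3 arrays at 10.21 to 10.24, so that the gap took a share of 0.959 of the group's range, above Dixon's 95% critical value for 4 values. Chance marks about 1 in 20 such groups, and 30 combinations of probe and group were examined. Without this array the log2 difference from DMSO was -0.94 (limma adjusted p = 0.166) in place of -1.08.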

How the results depend on the processing

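The log2 differences of CDKN1C, CDKN2C, CDKN2B, CDKN2D and CDKN3 from DMSO kept their sign at both doses in the 16 alternatives that give a value per gene and in the 12 fits that left out 1 array. At 42 µM, 3 members were called lower, and 0 with the slide as a fixed block; over the fits that left out 1 array the number ran from 0 to 3. At 28 µM it ran from 0 to 3 as well, with 3 reached only without 28 µM replicate 4. CDKN1C also lost its call at 42 µM with the processed signal under quantile scaling (limma adjusted p = 0.0832) or 75th percentile scaling (0.0683) and without the filter (0.0534). CDKN1B at 42 µM ran from -0.54 to -0.25 over the 16 alternatives and CDKN2A from -0.38 to -0.06, with no call. For CDKN1B the coding probe stood for the gene with the processed signal and the authors' values, whereas the -0.41 with array weights was on the 3′ probe. Values near 0 changed sign. CDKN2A at 28 µM over DMSO was 0.0303 with array weights, and 42 µM over 28 µM was 0.0403 for CDKN1C with the slide block, 0.0443 with array weights, and -0.0527 for CDKN2B with the mean of the probes of a gene. With 1 array left out, 28 µM over DMSO ran from -0.34 to 0.0587 for CDKN1B and from -0.16 to 0.0619 for CDKN2A. In the same fits 42 µM over 28 µM ran from -0.46 to 0.082 for CDKN1B, from -0.24 to 0.13 for CDKN1C, from -0.22 to 0.0281 for CDKN2A and from -0.25 to 0.0092 for CDKN2D. The cause was not tested.

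Over all genes, 343 were called lower and 381 higher at 42 µM. The counts were 167 and 194 with the processed signal under quantile scaling, 292 and 201 with it under 75th percentile scaling, 420 and 256 with Edwards values under 75th percentile scaling, 1 and 0 with the slide block, 485 and 621 with a replicate block, and 139 and 172 at a log2 limit of 1. Without 1 array they ran from 0 to 452 lower and from 0 to 540 higher. Of the pathway genes, 7 lower calls at 42 µM became 14 with the replicate block, 11 with array weights or only the groups compared, 3 with the processed signal under quantile scaling or a log2 limit of 1, and 0 with the slide block. The 2 higher calls became 1 with the processed signal under either scaling, at a log2 limit of 1 or with the mean of the probes of a gene, 3 with no log2 limit, and 0 with the slide block. Without 1 array the pathway calls ran from 0 to 11 lower and from 0 to 3 higher: 3 and 0 without DMSO replicate 1 or 4, 3 and 1 without DMSO replicate 3 or 42 µM replicate 1, 4 and 1 without 42 µM replicate 3, 4 and 2 without 28 µM replicate 3, 11 and 2 without 28 µM replicate 4, 7 and 3 without 42 µM replicate 4, and 0 and 0 without DMSO replicate 2 or 42 µM replicate 2. The correlations do not settle whether the replicate numbers pair the samples. Of 12 same-numbered pairs 7 deviated together with a correlation over 0.1, and the lowest correlation was -0.46. Between slides, the median correlation was 0.21 over 11 same-numbered pairs and -0.18 over 28 pairs with different numbers. With the replicate block CDKN3 kept its log2 fold change of -1.04 at 42 µM (limma adjusted p = 0.00765), and the calls of the 7 members were the same. Precision is limited by 4 arrays per group, and the dimmest member probe, of CDKN2B, lies nearest to its background.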
